A study of Saccharomyces cerevisiae with 12 samples.

Results

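The response of wildtype budding yeast to methyl methanesulfonate (MMS), a methylating agent, was read from 6 of the 12 Affymetrix YG-S98 arrays of a study of the transcription factor gene ANC1, namely the 3 arrays titled as treated wildtype and the 3 titled as untreated wildtype. The cells were of the haploid BY4741 background (MATa his3Δ1 leu2Δ0 met15Δ0 ura3Δ0), had ANC1 intact and were grown in the rich medium YPD to mid-log phase. Titles were followed, since the source names call the treated wildtype samples untreated. The sources used here state no dose or duration of MMS and do not say whether treated cultures were independent, so p-values reflect only how far these samples differ among themselves, a spread that may be technical. The methods describe 3 independent colonies per strain. The other 6 arrays, of anc1 deletion cells with and without MMS, entered the estimate of the spread and 1 comparison of responses.

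MMS transfers methyl groups to DNA bases, and also to RNA and protein. In yeast, methylated bases are removed by base excision repair, which starts with the glycosylase Mag1, and lesions that stall replication forks activate the checkpoint kinases Mec1, Rad53 and Dun1, which raise the supply of deoxynucleotides. Alkylating agents are also known to set off the programmes that yeast uses against oxidants and misfolded protein, with activators such as Yap1, Hsf1 and Rpn4, and to slow the synthesis of ribosomes.

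MMS-treated wildtype differed from untreated wildtype at a large share of the genome. Of 5656 genes measured, 1569 (27.7% of genes) were higher and 1175 (20.8% of genes) were lower with MMS. A gene is called here to have risen or fallen where limma's p, adjusted by Benjamini and Hochberg, is under 0.05 and the difference reaches 1.5-fold. The median log2 change, MMS minus untreated, was 1.05 among the genes that rose, -1.03 among those that fell and 0.08 over all genes. At least 2-fold changes were found in 863 higher and 624 lower genes, at least 4-fold changes in 130 and 90, and at least 8-fold changes in 23 and 12. All 3 MMS arrays lay above all 3 untreated arrays for 1562 of the genes that rose, and below them for 1148 of the genes that fell. Over all genes, called or not, the MMS arrays lay wholly above the untreated arrays at 41.9% and wholly below them at 32.7%. Genes at the limit were RVS161 (0.59) and RRT14 (-0.59), just inside it, and NDT80 (0.58) and HXT8 (-0.58), just outside it. With 3 arrays against 3 a single gene has 10 splits, so an exact two-sided permutation test cannot go below p = 0.1, and the calls rest on the spread shared between genes.

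**Figure D1:**
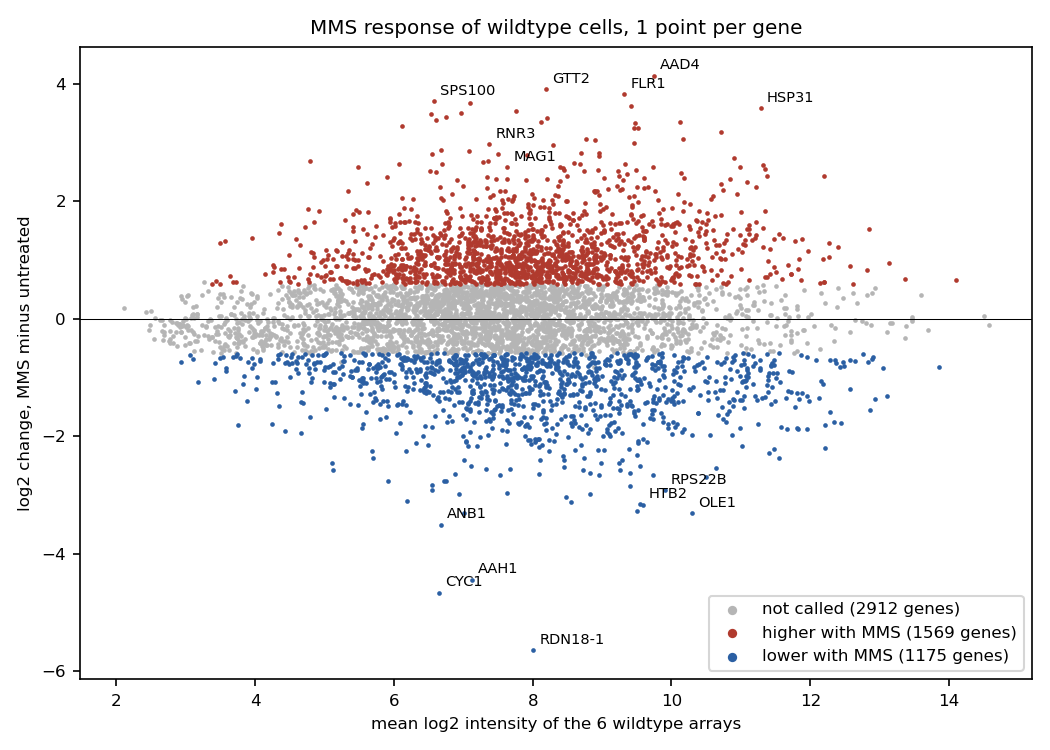
Log2 change of each gene, MMS minus untreated wildtype (vertical axis), against its mean log2 intensity over the 6 wildtype arrays (horizontal axis), 1 point per gene. The 1569 genes called higher (red) and the 1175 called lower (blue) lie on either side of 2912 genes not called (grey), and RDN18-1, CYC1 and AAH1 stand lowest.

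The arrays of 1 group were close to each other. Log2 intensities correlated between arrays with r of 0.995 to 0.997 among the MMS arrays and 0.988 to 0.993 among the untreated arrays, and the median SD of a probe set was 0.106 with MMS and 0.168 without. Of the marker genes that BY4741 lacks in whole or part, URA3 read 7.23 to 9.61 on the MMS arrays and 9.06 to 11.9 on the untreated arrays, and MET17, also known as MET15, read 5.92 to 7.59 with MMS and 9.37 to 13.3 without. MET17 was thereby called lower (-0.68). LEU2 was called lower on each of its probe sets (-1.11, -0.64 and -0.96), the brightest reading 23.2 to 25.1 with MMS and 41.4 to 64.0 without. Calls at such low intensities were thus also made for genes listed as deleted. HIS3, of which his3Δ1 is a partial deletion, was not low, and its brighter probe set read 1285 to 1366 with MMS and 755 to 942 without. Control probe sets, however, moved with the treatment. The ratio of the 3′ to the 5′ probe set of actin was 3.31, 3.59 and 3.85 on the MMS arrays, against 1.68, 1.49 and 1.47 on the untreated arrays, and that of SRB4 was 19.1, 16.1 and 19.3 with MMS against 5.91, 5.71 and 4.66 without. The actin 3′ probe set was alike in both (5438 to 5841 with MMS and 5491 to 5877 without), while its 5′ probe set read 1517 to 1644 with MMS and 3359 to 3954 without. For SPT15 the ratio was 4.37 to 4.94 with MMS and 3.57 to 4.16 without. Calls also followed gene length: of the shortest 25% of protein-coding genes 17.2% were higher and 27.9% lower, and of the longest 25% 36.7% were higher and 13.3% lower. The part of these differences in the calls was not tested.

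**Figure D2:**
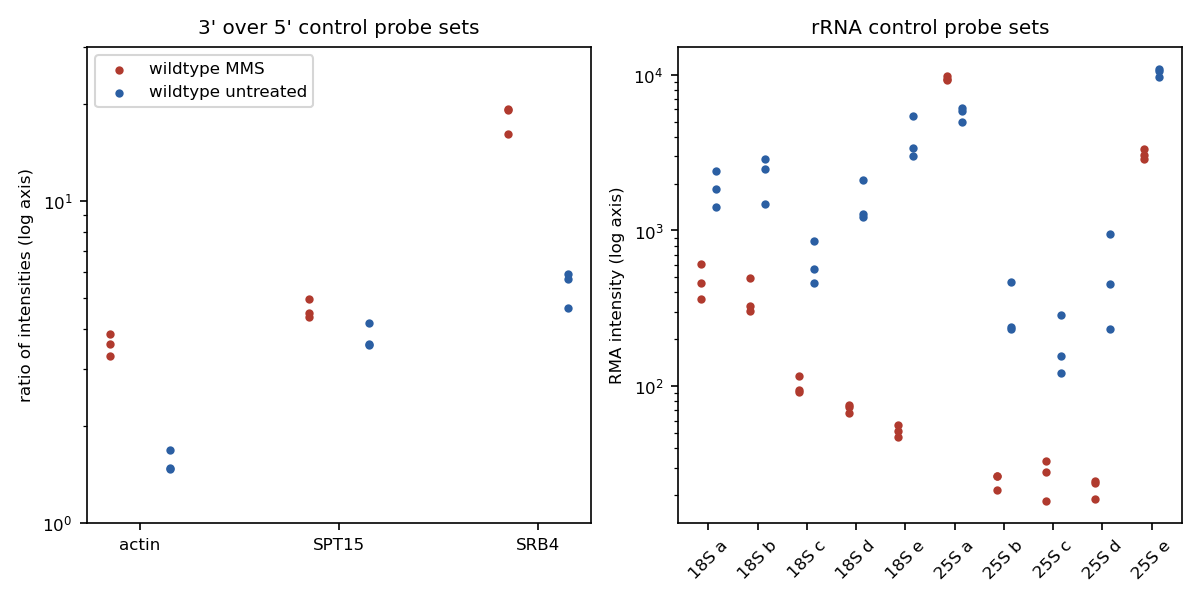
Left, ratio of the 3′ to the 5′ control probe set of 3 mRNAs, and right, intensity of the 18S and 25S rRNA control probe sets, on each MMS array (red) and each untreated array (blue) of wildtype, both on log axes. The actin ratio is 3.31 to 3.85 with MMS and 1.47 to 1.68 without, and all 18S probe sets are lower with MMS.

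Among called genes whose groups did not overlap, the 15 largest rises were of 3.35 to 4.14 on the log2 scale. AAD4, a member of the aryl-alcohol dehydrogenase family, had intensities of 3548, 3784 and 3465 on the MMS arrays, against 274, 189 and 166 on the untreated arrays (log2 change 4.14 ± 0.15, SE of the fit, adjusted p = 1.7e-10). Its probe set is marked as shared, so that signal of a near-identical family member cannot be told apart. GTT2, a glutathione S-transferase, had 1153, 1181 and 1077 with MMS and 88.2, 70.0 and 69.4 without (3.91 ± 0.10, adjusted p = 4.9e-11), and FLR1, a plasma membrane drug exporter, had 2519, 2392 and 2320.4 with MMS and 166, 141 and 210.5 without (3.82). In all 3 of these the lowest MMS array was several times the highest untreated array. Such a gap follows from their choice as the largest rises among genes without overlap. SPS100, known for the spore wall, had 352, 336 and 346 with MMS and 26.6, 26.3 and 26.1 without (3.71 ± 0.08), with little spread in either group. HSP31, a methylglyoxalase of the general stress response, had 8790.4, 8738 and 8406 with MMS and 910.2, 778 and 524 without (3.59). The other large rises were in OYE3, an NADPH oxidoreductase (3.68), SRX1, the sulfiredoxin that restores peroxiredoxins (3.61), TMT1, a trans-aconitate methyltransferase (3.54), ARG3, ornithine carbamoyltransferase (3.49), TIS11, an mRNA-binding protein of iron starvation (3.42), SSA4, an inducible Hsp70 (3.35), and YNR068C (3.49), OSI1 (3.43), BOP2 (3.38) and FMP23 (3.35).

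The 15 largest falls, again among called genes whose groups did not overlap, were of -2.97 to -5.65 on the log2 scale. RDN18-1, an 18S rRNA gene, had 32.6, 41.6 and 35.3 on the MMS arrays, against 1738, 2452 and 1410.1 on the untreated arrays (-5.65 ± 0.23, adjusted p = 4.0e-10). CYC1, the main cytochrome c, had 18.7, 20.3 and 21.1 with MMS and 440.3, 539.9 and 545 without (-4.66 ± 0.13, adjusted p = 4.9e-11). The adjacent gene ANB1, the hypoxic isoform of translation factor eIF5A, had 30.7, 27.7 and 32.8 with MMS and 333, 322 and 379 without (-3.50). That no array of one group reached the other in these genes follows from how they were chosen. AAH1, adenine deaminase, had 33.1, 26.4 and 30.8 with MMS and 560.3, 719 and 687 without (-4.44 ± 0.13). OLE1, the fatty acid desaturase, had 448, 393 and 356 with MMS and 4063, 4255 and 3563 without (-3.31). HXT4, a hexose transporter, had the widest spread of the 15, with 202, 125 and 76.9 on the MMS arrays and 1362, 1213 and 637 on the untreated arrays (-3.03 ± 0.31), where the lowest value of each group is that of replicate 3. The rest were PLB2, a phospholipase B (-3.31), PHO3, an acid phosphatase (-3.28), HTB2, histone H2B (-3.17), the pyrimidine genes URA1, dihydroorotate dehydrogenase (-3.16), URA7, CTP synthase (-3.13), and FUR1, uracil phosphoribosyltransferase (-2.98), the small nucleolar RNAs SNR72 (-3.11) and SNR44 (-2.97), and IZH4, a membrane protein regulated by zinc (-2.99).

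**Figure D3:**
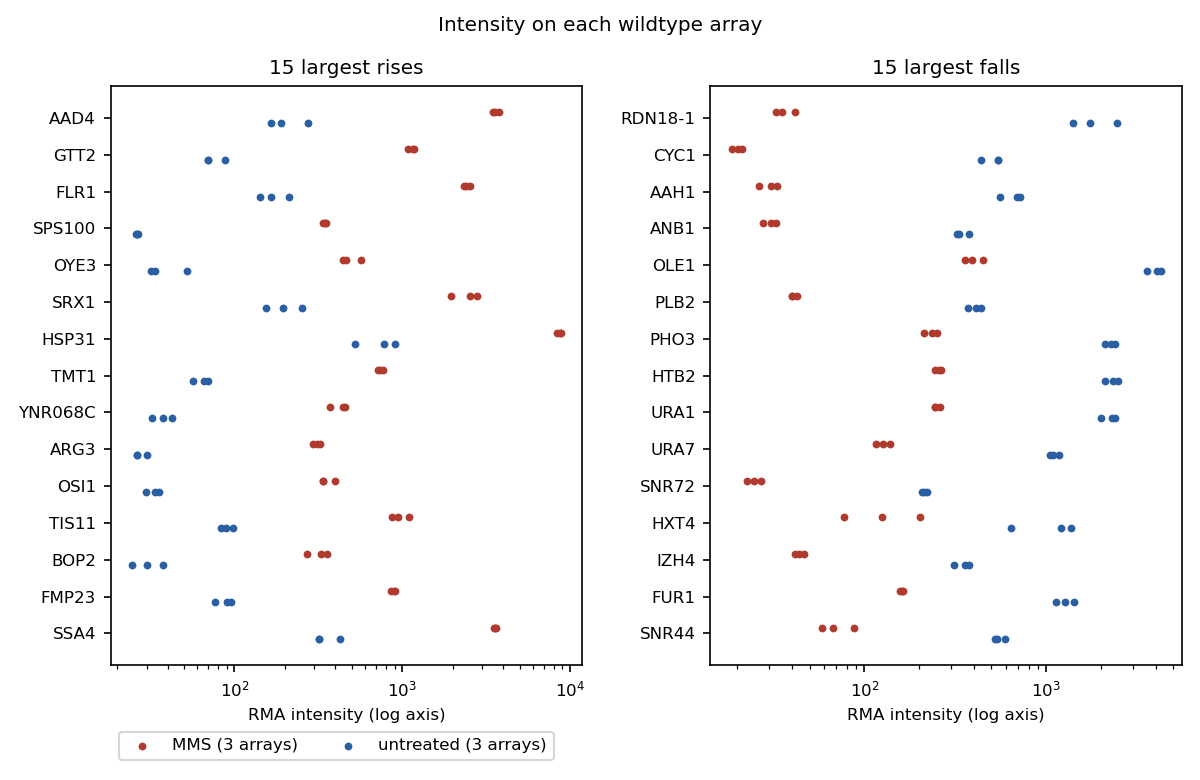
RMA intensity (log axis) of the 15 genes with the largest rises (left) and the 15 with the largest falls (right), with 1 point per array, MMS in red above and untreated in blue. Only called genes whose groups do not overlap were ranked, and HXT4 spreads most, from 76.9 to 202 with MMS and from 637 to 1362 without.

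Genes were then read by function in 60 lists. In the text the count of members called stands beside the 27.7% and 20.8% of all genes called higher and lower, and beside the median change over all genes of 0.08.

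**Figure D4:**
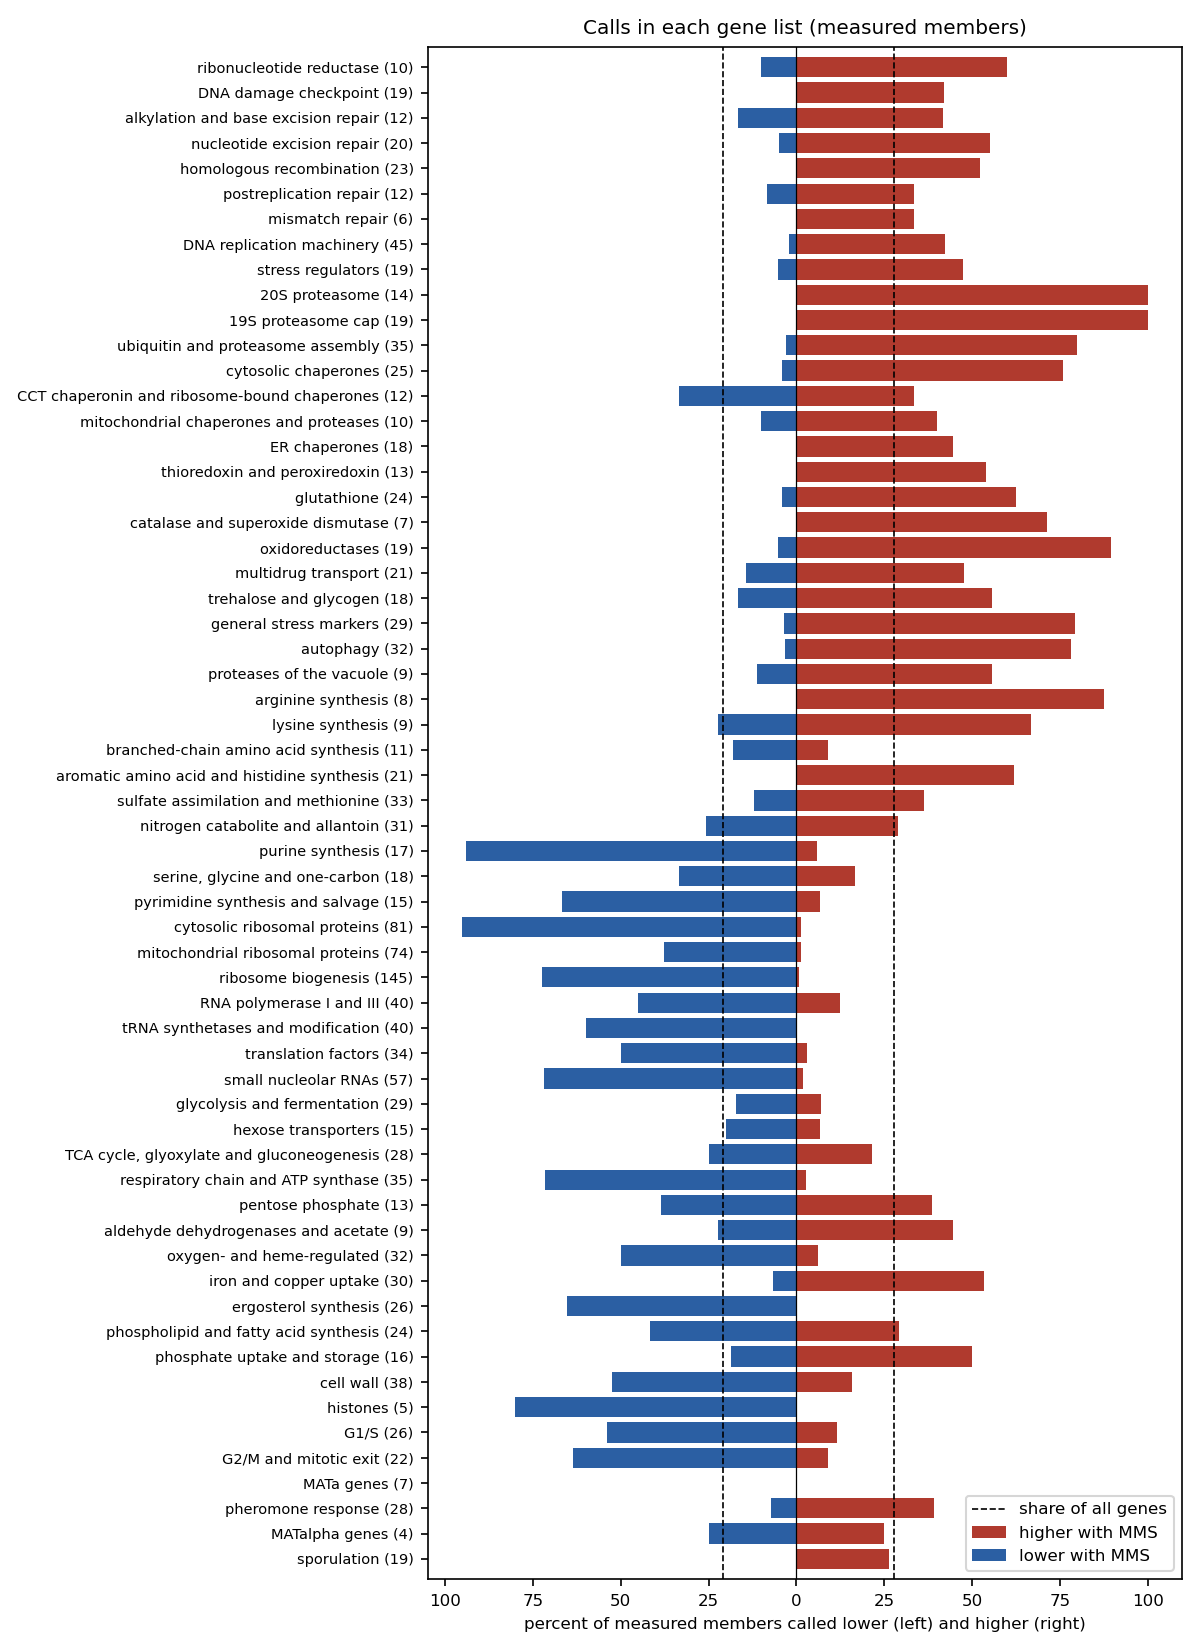
Percent of the measured members of each gene list called higher with MMS (red, to the right) and lower (blue, to the left), with the number of measured members in brackets and the share of all genes, 27.7% higher and 20.8% lower, as dashed lines. Both proteasome lists reach 100% higher, and cytosolic ribosomal proteins 95.1% lower.

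The deoxynucleotide supply genes that the checkpoint controls were mostly higher. Of 10 genes of ribonucleotide reductase and its regulators, 6 rose and 1 fell, with a median change of 1.31. RNR3, the damage-inducible large subunit, had 497, 465 and 434 with MMS and 60.5, 53.1 and 64.2 without (2.98 ± 0.11, adjusted p = 2.4e-10), although its probe set is marked as shared. The small subunits RNR2 (3881, 3433 and 3839 with MMS, 1257, 1388 and 1219.9 without, 1.53) and RNR4 (1.16) rose as well. HUG1, a small inhibitor of the enzyme, had 231, 212 and 220.3 with MMS and 45.9, 40.2 and 55.6 without (2.24). The repressor of these genes, RFX1, also known as CRT1, rose (1.71), as did the checkpoint kinase DUN1 (1.45), whereas DIF1, which imports the small subunits into the nucleus, fell (-0.85). The constitutive large subunit RNR1 was not called, with 891, 773 and 816 on the MMS arrays and 532, 668 and 849 on the untreated arrays (0.30, adjusted p = 0.12). RNR1 groups overlapped on the array of untreated replicate 3. The inhibitor SML1 was lower on all MMS arrays but under the fold limit (-0.50, and -0.61, past it, after median centring), and WTM1, which anchors the small subunits in the nucleus, had a change of 0.07. In the checkpoint list 8 of 19 genes rose and 0 fell, among them the effector kinase RAD53 (115, 105 and 106 with MMS and 32.3, 31.7 and 48.5 without, 1.56), the fork mediator MRC1 (1.26) and the clamp subunit RAD17 (1.02).

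In base excision and direct repair, 5 of 12 genes rose and 2 fell. MAG1, the 3-methyladenine glycosylase, had 491, 503 and 458 with MMS and 81.8, 93.5 and 69.9 without (2.58 ± 0.11, adjusted p = 5.5e-10), the largest rise of this list. The glycosylase NTG1 (1.33), its paralog NTG2 (0.73), the flap nuclease RAD27 (0.87) and the endonuclease APN2 (0.85) also rose. MGT1, the methyltransferase that repairs O6-methylguanine directly, had 258, 270.2 and 256 with MMS and 229, 220.4 and 264 without, overlapping groups with a change of 0.14. APN1, the main abasic site endonuclease, was above the untreated arrays on every MMS array but under the fold limit (0.54), and the same held for DNA ligase CDC9 (0.44) and for TPP1 (0.29). APN1 reached the limit without MMS replicate 3 or untreated replicate 3 (0.59 in each). OGG1, which removes oxidised guanine, fell (-0.73), and so did the photolyase PHR1 (-0.62), which fell under the fold limit without MMS replicate 3 (-0.55), untreated replicate 1 (-0.53) or untreated replicate 2 (-0.52), and after quantile normalization (-0.52). UNG1, uracil glycosylase, had a change of -0.33.

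Nucleotide excision repair had 11 of 20 genes higher and 1 lower, and homologous recombination 12 of 23 higher and 0 lower, with median changes of 0.66 and 0.64. RAD2, the 3′ incision nuclease, had 703, 660.0 and 672 with MMS and 161, 159 and 159.9 without (2.09 ± 0.10). The damage recognition genes RAD4 (2.04) and RAD7 (1.70) rose too. RAD54, which remodels chromatin during strand exchange, had 234, 214 and 212 with MMS and 32.7, 39.8 and 42.9 without (2.52 ± 0.11). Its paralog RDH54 (1.34), RAD59 (1.32) and the mediator RAD52 (1.05) were also higher. PMS1 (1.10) was 1 of 2 risen genes among 6 measured in mismatch repair.

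Postreplication repair, the pathway by which stalled forks pass a lesion, was near the share of all genes, with 4 of 12 genes higher and 1 lower. RAD5, the ligase and helicase of the error-free branch, had 226, 208 and 204 with MMS and 97.3, 76.7 and 118 without (1.15 ± 0.13). RAD18, which modifies the sliding clamp (0.85), POL30, the clamp itself (0.72), and UBC13, the conjugating enzyme of the error-free branch (0.65), rose, and SRS2, the helicase that removes recombination filaments, fell (-0.61). UBC13 lost its call without untreated replicate 2 (0.57) or after median centring (0.54), and SRS2 without MMS replicate 2 (-0.58) or untreated replicate 3 (-0.57). MMS2, the partner of UBC13 (-0.24), and RAD6 (-0.27) were below the untreated arrays on every MMS array and under the fold limit. The translesion polymerase genes RAD30 (0.57), REV3 (0.55), REV1 (0.12) and REV7 (0.05) were not called, and neither was POL32 (0.07), with RAD30 and REV3 above the untreated arrays on all MMS arrays. RAD30 passed the limit without MMS replicate 3 (0.65), untreated replicate 2 (0.67) or untreated replicate 3 (0.61), and REV3 without MMS replicate 2 (0.62), MMS replicate 3 (0.62) or untreated replicate 1 (0.64), and both passed it after quantile normalization (RAD30 0.79, REV3 0.61). In the replication machinery 19 of 45 genes rose and 1 fell. RFA1, the largest subunit of the single-strand binding protein RPA, had 1693, 1579 and 1448 with MMS and 308, 351 and 342 without (2.24 ± 0.09), and RFA2 (1.04), the helicase-nuclease DNA2 (1.64) and the primase subunit PRI2 (1.26) rose too.

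Of 19 regulators of stress transcription, 9 rose and 1 fell. HSF1, the heat shock factor, had 1210.0, 1121 and 1192 with MMS and 208, 216 and 189.5 without (2.52 ± 0.09). YAP1, the oxidant and drug response factor, had 832, 817 and 869 with MMS and 131, 161 and 144 without (2.53 ± 0.12), and its paralog CAD1 rose (1.41). PDR1, the drug resistance activator, had 1535, 1623 and 1446 with MMS and 384, 301 and 188 without (2.46 ± 0.19). In these 4 genes no untreated array reached an MMS array, which held for 1562 of all 1569 genes called higher. RPN4, the activator of proteasome genes (1.64), the repressors XBP1 (1.64) and ROX1 (1.15), the sulfur activator MET4 (1.32) and the G1 factor SWI4 (0.74) also rose. GCN4, the activator of amino acid synthesis, whose amount is set largely by translation, had 3329.6, 3513 and 3214 with MMS and 3499, 3138 and 3197 without (0.03), and the general stress factors MSN2 (0.18) and MSN4 (-0.23) were not called. CIN5 read 130.2, 109 and 87.6 with MMS and 359.8, 225 and 102 without (-0.91, adjusted p = 0.032), with overlapping groups. Its call was lost without untreated replicate 1 (-0.49, adjusted p = 0.17), untreated replicate 2 (-0.83), MMS replicate 2 (-0.92) or MMS replicate 3 (-0.76). CIN5 was also not called where only the 6 wildtype arrays were fitted (limma's adjusted p = 0.069). Changes under the limits were 0.47 in YAP6 (0.78, past them, after quantile normalization), -0.41 in SKN7, -0.37 in HAC1, 0.29 in PDR3, -0.14 in SWI6 and 0.08 in MBP1.

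The proteasome, which degrades ubiquitin-tagged protein, rose as a whole. All 14 genes of its 20S core were higher, by 1.0 to 1.64 (median 1.35), and all 19 genes of its 19S cap, by 0.89 to 2.22 (median 1.57). RPT3, an ATPase of the cap, had 1691, 1798 and 1561 with MMS and 347, 401 and 337 without (2.22 ± 0.09, adjusted p = 4.8e-10), and RPT2 rose by 2.08. PRE4, a core subunit, had 2596, 2403 and 2604 with MMS and 830.3, 873 and 797 without (1.60 ± 0.09), next to PRE8 (1.53). No array of the MMS group overlapped the untreated group in these genes, which held for 1562 of all 1569 genes called higher. Among ubiquitin and proteasome assembly genes 28 of 35 rose. UBI4, the stress polyubiquitin gene, had 4841, 4716 and 5333 with MMS and 941, 827 and 732 without (2.58 ± 0.10). The shuttle factor DDI1 (2.99), the proteasome scaffold ECM29 (2.41) and NPL4 (2.18), a cofactor of the Cdc48 segregase, also rose. ECM29 was under the fold limit where its probe sets were averaged (0.46). The assembly chaperone POC4 was the single member that fell (-1.11). Such lone members called against their list, here and below, were named after their values were seen.

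Chaperones differed by class. Of 25 cytosolic chaperones of the heat shock type, 19 rose and 1 fell, with a median of 1.61. HSP82, the inducible Hsp90, had 4829, 5232 and 5579 with MMS and 1069, 1022 and 1209 without (2.25 ± 0.10). BTN2, which sequesters misfolded protein, had 1194, 1401 and 1307 with MMS and 153, 204 and 221 without (2.77), and the Hsp90 activator AHA1 rose by 1.88. CNS1, an Hsp90 co-chaperone, fell (-0.68). By contrast 4 of 12 genes of the CCT chaperonin and of ribosome-bound chaperones rose and 4 fell: CCT2, a chaperonin subunit, rose (1.13), while SSZ1 (452, 433 and 403 with MMS and 1175, 1299.8 and 1303 without, -1.55), ZUO1 (-0.97) and EGD1 (-0.78), which bind nascent chains at the ribosome, fell. In mitochondria HSP78, a disaggregase, had 1127, 1308 and 1343 with MMS and 169, 192 and 106 without (3.05 ± 0.18), and the cofactor MDJ1 rose (1.71), though 4 of 10 genes there were higher and the median was 0.08. In the endoplasmic reticulum 8 of 18 genes rose, led by the oxidase ERO1 (2.38).

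Redox genes rose across their classes. In the thioredoxin and peroxiredoxin list 7 of 13 genes were higher, in the glutathione list 15 of 24, among catalases, superoxide dismutases and related genes 5 of 7, and among stress oxidoreductases 17 of 19. TSA2, a stress-induced peroxiredoxin, had 946, 1099 and 1025 with MMS and 228, 199 and 125 without (2.52 ± 0.17). The mitochondrial peroxiredoxin PRX1 (1.69) and thioredoxin TRX2 (1.19) also rose. ECM4, an omega-class glutathione transferase, had 907, 861 and 856 with MMS and 125, 129.9 and 86.8 without (2.97), and the peroxidase GPX2 had 471, 471 and 482 with MMS and 133, 153 and 149 without (1.71). YHB1, the flavohemoglobin that removes nitric oxide, rose by 2.55, and GRE2, a methylglyoxal reductase, by 3.25. Of the multidrug transporters 10 of 21 were higher and 3 lower, with ATR1 (2.81) and the ABC exporter SNQ2 (1.38) among those that rose and QDR2 (90.7, 89.1 and 93.6 with MMS and 337, 287 and 276 without, -1.71) among those that fell.

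Reserve carbohydrate, general stress and autophagy genes were also mostly higher. In trehalose and glycogen metabolism 10 of 18 genes rose and 3 fell. NTH1, neutral trehalase, had 3206, 3367 and 3396 with MMS and 609, 467 and 225 without (3.05 ± 0.25), where untreated replicate 3 was lowest, and NTH2 had 942, 865 and 886 with MMS and 298, 295 and 300.1 without (1.59 ± 0.08). Of the general stress markers 23 of 29 rose, such as TFS1, an inhibitor of carboxypeptidase Y (4591, 4869 and 5199 with MMS and 1149, 1010.3 and 793 without, 2.33), the Hsp110 gene SSE2 (1.96) and the aldehyde dehydrogenase ALD3 (2.81), and the kinase MRK1 was the lone fall (-1.14). Autophagy, by which the vacuole takes up cytoplasm, had 25 of 32 genes higher (median 0.95). ATG1, its kinase, had 192, 171 and 144 with MMS and 35.2, 29.3 and 19.5 without (2.63 ± 0.17), next to ATG13, the regulator of that kinase (1.51), and the cargo receptor ATG19 (1.45, but 0.53, under the fold limit, as the mean of its probe sets). ATG15, a lipase that breaks down autophagic bodies, fell (-0.68), and was under the limit as the mean of its probe sets (-0.57). Of 9 proteases of the vacuole 5 rose and 1 fell. APE1, the vacuolar aminopeptidase that ATG19 carries, had 6284, 6468 and 6291 with MMS and 1213, 988 and 924 without (2.62), and the protease PEP4 rose (1.01).

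Amino acid synthesis moved by pathway. Arginine synthesis had 7 of 8 genes higher (median 1.95). ARG1, argininosuccinate synthetase, had 2540.1, 2697 and 2763 with MMS and 482, 544 and 503 without (2.39 ± 0.10), and ARG4 (2.43) and ARG7 (2.25) rose with it. In lysine synthesis 6 of 9 rose and 2 fell, with LYS20, homocitrate synthase, at 11275, 10842 and 10630.4 with MMS and 2035, 2067 and 2010.0 without (2.42), and LYS1 higher by 2.58. Aromatic and histidine synthesis had 13 of 21 higher and 0 lower, including ARO1 (1.52), TRP2 (1.29) and the transaminase ARO9 (1.74). Branched-chain synthesis had 1 of 11 higher and 2 lower. LEU1, isopropylmalate isomerase, fell (-1.07). Within sulfur metabolism 12 of 33 rose and 4 fell. STR2, which makes cystathionine, had 854, 871 and 802 with MMS and 143, 153 and 133 without (2.56). SAM1, which makes the cell's methyl donor S-adenosylmethionine, had 192, 181 and 188 with MMS and 889, 1085 and 956 without (-2.38 ± 0.10), its paralog SAM2 fell by 2.57 on the log2 scale and methionine synthase MET6 fell too (-1.78). Of 31 genes of nitrogen use, 9 rose, among them the activator GAT1 (2.39), and 8 fell, among them CAR2 of arginine breakdown (-1.22). These 29.0% and 25.8% are near the 27.7% and 20.8% of all genes.

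Nucleotide synthesis was lower. In purine synthesis 16 of 17 genes fell and 1 rose, with a median of -1.53. IMD4, an IMP dehydrogenase, had 264, 217 and 278 with MMS and 1573, 1889 and 2025 without (-2.85 ± 0.15). The family members IMD2 (-2.24) and IMD3 (-1.94) also fell, though both are read from family probe sets. ADE16, a late enzyme of the pathway, was the lone rise (0.88). In the list of serine, glycine and one-carbon genes 3 of 18 rose and 6 fell. MIS1, which supplies mitochondrial one-carbon units, had 141, 114 and 131 with MMS and 601, 624 and 521 without (-2.18). The list of pyrimidine synthesis and salvage, drawn up after values were seen, had 10 of 15 lower. URA1 had 259.6, 245 and 244 with MMS and 2311, 2401 and 2003 without, and URA7 had 138, 116 and 126 with MMS and 1054, 1182 and 1085 without. URA10, the minor orotate phosphoribosyltransferase, was the lone rise (111, 112 and 114 with MMS and 40.6, 43.7 and 38.4 without, 1.46).

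Most genes for making and running ribosomes fell. Of 81 cytosolic ribosomal protein genes, 77 fell and 1 rose, RPL15B (1.10), with a median of -1.31. RPL13A had 743, 623 and 615 with MMS and 3636, 4038 and 3861 without (-2.55 ± 0.09), and RPS7A had 611, 555 and 543 with MMS and 3288, 4288 and 3489 without (-2.69 ± 0.11). RPS22B (-2.91) and RPL17A (-2.21) fell as well, on probe sets marked as family and incomplete. Many of these genes have a near-identical copy, so that their probe sets may read both. In the ribosome biogenesis list 105 of 145 genes fell (median -1.04), such as the helicase HAS1 (79.5, 68.8 and 71.3 with MMS and 408, 504 and 481 without, -2.66) and NOP13 (-2.24), and RRP43, an exosome subunit, was the lone rise (0.69), under the limit after median centring or quantile normalization (0.58 in each). RNA polymerases I and III had 18 of 40 genes lower and 5 higher. RPA190, the largest subunit of polymerase I, had 251, 212 and 216 with MMS and 1003, 1151 and 1036 without (-2.23), and RPA135 fell by 2.41 on the log2 scale. For tRNA synthetases and modification the count was 24 of 40 lower and 0 higher, for example tryptophanyl-tRNA synthetase WRS1 (-1.44), and for translation factors 17 of 34 lower, for example TEF4 of elongation factor eEF1B (-1.61). Mitochondrial ribosomal proteins were lower in 28 of 74, with MRPL39 at -1.30, and a median of -0.43.

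Several classes of RNA that are not mRNA were also read lower. The list of small nucleolar RNAs, which guide the modification of rRNA, was drawn up after values were seen, and 41 of its 57 genes fell (median -0.99). SNR72 had 27.0, 22.6 and 24.9 with MMS and 212, 207 and 222 without (-3.11 ± 0.11), SNR56 changed by -2.58 and SNR63 by -2.77. Of 4 snoRNA genes that lie inside a protein-coding gene on the same strand, a set named after its values were seen, 3 fell together with their host, SNR44 (-2.97) with RPS22B (-2.91), SNR54 (-1.67) with IMD4 (-2.85) and SNR38 (-1.06) with TEF4. The fourth, SNR39, was the only snoRNA gene called higher (0.71, and 0.55, under the limit, without untreated replicate 1), while its host RPL7A fell (-2.38). Of the other 53 snoRNA genes 38 fell. Of 91 tRNA genes 36 were lower and 0 higher, with a median of -0.44, of 4 rRNA genes 2 were lower, and the telomerase RNA changed by -1.53. The rRNA genes RDN5-1 (-0.12) and RDN5-3 (0.03) were not called. Of 4 snRNA genes 1 was lower, and the RNase P RNA was not called (-0.48). RDN37-1 was not called on its brightest probe set (0.35), while its other probe sets ran from 0.24 to -4.04. The rRNA control probe sets moved in both directions. The 18S sets a to e and the 25S sets b to e were lower with MMS. Control 18S e read 47.2, 56.4 and 51.8 with MMS and 3403, 5416 and 3016 without, and control 25S a read 9420, 9301 and 9781 with MMS and 4962, 6151 and 5829 without. Together with the actin ratios of 3.31 to 3.85 with MMS and 1.47 to 1.68 without, these are the values that moved with the non-coding RNAs, and their part in the falls was not tested.

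Carbon metabolism was mixed, and respiration was lower. Of 35 genes of the respiratory chain and ATP synthase, 25 fell and 1 rose, with a median of -0.84. COX4, a subunit of cytochrome c oxidase, had 138, 161 and 141 with MMS and 800.2, 918 and 818 without (-2.53 ± 0.09). The Rieske protein RIP1 had 152, 144 and 123 with MMS and 681, 624 and 670.3 without (-2.24), COX7 fell by 1.90 on the log2 scale, and NDE2, an external NADH dehydrogenase, was the lone rise (1.38). The list of oxygen- and heme-regulated genes, drawn up after values were seen, had 16 of 32 lower, and it holds genes known to be used with oxygen, such as CYC1, beside genes known to be used without it, such as ANB1. IZH1, another of its members, changed by -2.63. In glycolysis and fermentation 5 of 29 genes fell and 2 rose, with hexokinase HXK2 at 1139.6, 1085 and 939 with MMS and 2905, 3679 and 2833 without (-1.57). Of 15 hexose transporters 1 rose and 3 fell. HXT5, a transporter of slow growth, rose (207, 209 and 194 with MMS and 72.3, 55.1 and 59.1 without, 1.72). HXT2 (-1.11) and HXT6 (-0.62) fell with overlapping arrays, and limma's adjusted p passed 0.05 when single arrays were left out. Where only the 6 wildtype arrays were fitted, limma's adjusted p was 0.054 for HXT2 and 0.095 for HXT6, so neither was called. HXT2 changed by -0.62 without MMS replicate 3 (adjusted p = 0.12), by -0.91 without untreated replicate 1 and by -0.99 without untreated replicate 2. HXT6 changed by -0.31 without MMS replicate 3 (adjusted p = 0.22), by -0.63 without MMS replicate 2, by -0.49 without untreated replicate 1 and by -0.56 without untreated replicate 2, and by -0.42 after quantile normalization. In the TCA and gluconeogenesis list 6 genes rose and 7 fell of 28, with peroxisomal citrate synthase CIT2 (1.69) and pyruvate carboxylase PYC1 (1.39) higher and malic enzyme MAE1 (655, 626 and 619 with MMS and 2299, 2440.1 and 2798 without, -1.98) lower. The pentose phosphate list had 5 genes higher and 5 lower of 13, with ribose isomerase RKI1 at 46.5, 41.7 and 36.2 with MMS and 267, 297 and 274 without (-2.76). RKI1 and RPS7A, both lower, are neighbouring genes. In the list of aldehyde dehydrogenases and acetate 4 of 9 genes rose and 2 fell, among the latter acetyl-CoA synthetase ACS2 (-1.64).

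Membrane and surface genes moved by class. In ergosterol synthesis 17 of 26 genes fell and 0 rose. ERG3 had 519, 499 and 556 with MMS and 1873, 2214 and 2034 without (-1.96), and ERG5 had 65.7, 65.2 and 68.2 with MMS and 322, 419 and 447 without (-2.56 ± 0.12), both sterol desaturases. In phospholipid and fatty acid synthesis 7 of 24 rose, among them inositol phosphate synthase INO1 (1.82), and 10 fell, among them the elongase ELO2 (-2.65). The share that rose there, 29.2%, is near the 27.7% of all genes. Iron and copper uptake had 16 of 30 higher and 2 lower. FIT2, a cell wall protein that retains siderophores, had 1529, 1307 and 1289 with MMS and 182, 144 and 178 without (3.04 ± 0.11). The siderophore transporters SIT1 (2.58) and ARN1 (2.18) rose with it. In the phosphate list 8 of 16 rose, including the kinase inhibitor PHO81 (1.42) and the phosphatase PHM8 (2.40). Cell wall genes were lower in 20 of 38 and higher in 6. GAS3, of a glucan-modifying family, had 191, 193 and 213 with MMS and 1213, 1209.9 and 1327 without (-2.65 ± 0.08), and CIS3 (-2.29) and SCW10 (-2.22) fell as well.

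In the lists drawn up for G1/S and for G2/M, which do not hold every gene that peaks there, members were more often lower than higher. Of 26 G1/S genes 14 fell and 3 rose, and of 22 genes of G2/M and mitotic exit 14 fell and 2 rose. In cultures such as these, fewer cells in a phase and less RNA per cell cannot be told apart. The G1 cyclin CLN1 had 34.9, 33.3 and 30.6 with MMS and 150.4, 168 and 154 without (-2.26 ± 0.09), and CLN2 had 65.2, 61.9 and 63.6 with MMS and 243, 289 and 284 without (-2.09 ± 0.10). The wall genes TOS6 (-2.63) and SVS1 (-1.76) fell with them. CHS2, the chitin synthase of the division septum, had 48.7, 46.8 and 46.1 with MMS and 253, 294 and 344 without (-2.64 ± 0.11). The mitotic cyclin CLB1 (-2.16), the transcription factor SWI5 (-1.84) and BUD4 (-1.68) fell too. Of 5 histone genes measured 4 fell, with HTB2 at 259, 245 and 265 with MMS and 2095, 2469.5 and 2342 without, and the linker histone HHO1 at -1.87.

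Genes of mating type were read as a check on the cells. The changes of the 7 MATa genes lay between -0.43 and 0.48 without a call, and their summed intensity was 12023 to 13467 with MMS and 11923 to 13551 without. The 4 MATalpha genes summed to 251 to 274 with MMS and 151 to 184 without. Of these SAG1, alpha-agglutinin, rose (228, 214 and 201 with MMS and 97.5, 76.1 and 91.3 without) and MF(ALPHA)1, a pheromone gene, fell (16.1, 15 and 18.6 with MMS and 42.1, 36.3 and 39.8 without). Sporulation genes were called higher in 5 of 19 (26.3%, near the 27.7% of all genes) and had a median of 0.02. In the pheromone response 11 of 28 genes rose and 2 fell. PRM5 had 1277, 1523 and 1246 with MMS and 349, 313 and 226 without (2.20 ± 0.15). The G protein subunit GPA1 (1.82) and the kinase STE11 (1.81) also rose, while FAR1, the cyclin kinase inhibitor that arrests cells in G1, fell (126, 135 and 126 with MMS and 291, 349.8 and 432 without, -1.45).

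Related genes with the same function moved apart in several cases. Of 42 pairs examined, 9 had 1 gene higher and the other lower, 11 had both called in the same direction, 16 had 1 called and 6 had neither called. Over all genes 27.7% were higher and 20.8% lower, and 10.2% to 11.1% of neighbouring gene pairs were called in opposite directions. Whether the 42 pairs differ from such shares was not tested. GND2, the minor phosphogluconate dehydrogenase, had 277, 224 and 266 with MMS and 87.5, 76.1 and 64.0 without (1.76), whereas GND1, the major form, had 1186, 1288 and 1252 with MMS and 2435, 2436 and 2556 without (-1.0). Transketolase TKL2 rose (0.74) and TKL1 fell (-1.24), phosphoglucomutase PGM2 rose (1.26) and PGM1 fell (-1.17), and glutamate dehydrogenase GDH3 rose (0.90) and GDH1 fell (-1.55). SOL4 (1.68) and SOL3 (-0.70), phosphogluconolactonases, had the same split. So did glycogen synthases GSY2 (0.73) and GSY1 (-1.29), though these calls turned on single arrays. GSY1 lost its call without untreated replicate 1 (-0.75, adjusted p = 0.082), untreated replicate 2 (-1.17) or MMS replicate 3 (-1.09), and GSY2 without untreated replicate 3 (0.37) or MMS replicate 1 (0.64). GSY1 was also not called where only the 6 wildtype arrays were fitted (limma's adjusted p = 0.055). For glucan synthases GSC2 rose (0.69) and FKS1 fell (-0.75), though GSC2 was under the limit after median centring (0.58) and at -0.34 as the mean of its probe sets. The alcohol dehydrogenases ADH6 (0.99) and ADH7 (-0.71) and the isopropylmalate synthases LEU4 (1.02) and LEU9 (-1.03) were the remaining opposite pairs, with ADH7 under the limit after quantile normalization (-0.50).

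In other pairs 1 gene rose and its partner was not called. TSA2 rose by 2.52 against 0.52 in TSA1, HSP82 by 2.25 against 0.43 in HSC82, SSE2 by 1.96 against 0.37 in SSE1, TRX2 by 1.19 against -0.31 in TRX1, and NQM1 by 1.80 against -0.45 in TAL1. After quantile normalization TSA1 (0.74) and HSC82 (0.67) were called higher too. The Hsp70 genes SSA4 (3.35) and SSA2 (0.68) both rose, SSA2 being under the limit after median centring (0.56). Of the lower pairs, CYC1 fell by 4.66 on the log2 scale and CYC7, the other cytochrome c, had 154, 145 and 123 with MMS and 327, 239 and 70.5 without (-0.33). CYC7 overlapped on untreated replicate 3, without which its change was -1.0 and past the limits, and without untreated replicate 1 it was 0.11. COX5A (-2.07) and COX5B (-0.95), alternative subunits of cytochrome c oxidase, both fell, and HXK1 (-0.42) was not called beside HXK2 (-1.57), and passed the limits without MMS replicate 1 (-0.61) or untreated replicate 3 (-0.64).

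**Figure D5:**
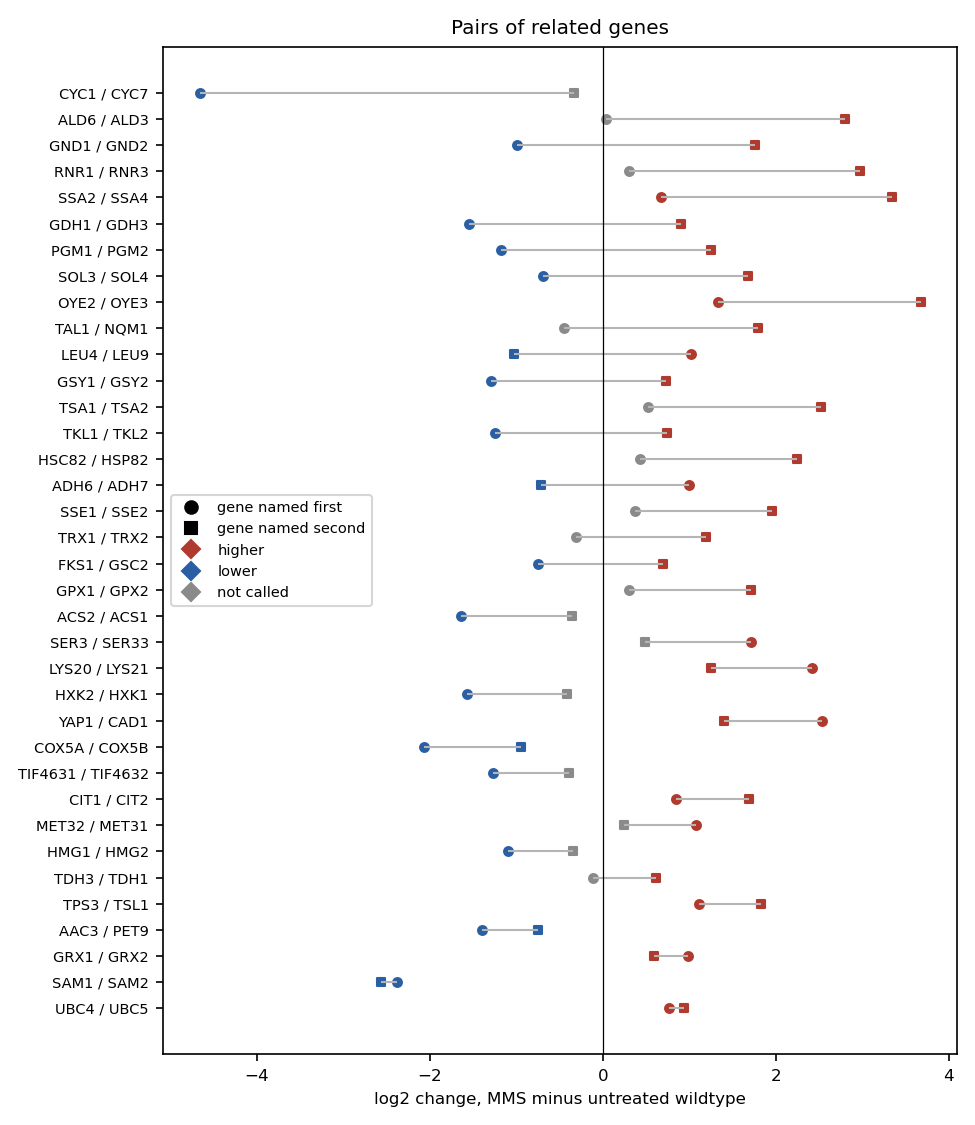
Log2 change, MMS minus untreated wildtype, of both genes of the 36 pairs in which at least 1 was called, with the gene named first as a circle and the other as a square, red for higher, blue for lower and grey for not called. CYC1 and CYC7 are farthest apart, and 9 pairs lie on both sides of 0 with both genes called.

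Probe sets of the same gene did not always give the same call. Of 315 genes with several probe sets, 151 had the same call in all of them, 140 had called and not called probe sets, and 24 had opposite calls. Of 5656 genes 274 were read from a probe set marked as shared, family or incomplete, among them AAD4, RNR3, RDN18-1, YHB1, BUD4, IMD2, IMD3, HXT6, RPS22B, HSP82, HAC1, RPL17A, RPL7A and TKL2, and their values are less certain. Neighbouring genes were both higher in 9.43% of divergent pairs, 8.32% of tandem pairs and 8.27% of convergent pairs, both lower in 5.36%, 4.67% and 3.76%, and called in opposite directions in 10.8%, 10.2% and 11.1%, where single genes were higher in 27.7% and lower in 20.8% of cases.

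The wildtype response was set against that of anc1 cells, which lack a subunit shared by several transcription complexes, by an interaction contrast. The response differed at 1347 genes (23.8% of genes), more positive in wildtype at 805 and more negative at 542. Of the genes that rose in wildtype, 590 had a more positive response than in anc1 and 14 a less positive one, and of the genes that fell, 438 had a more negative and 16 a less negative one. These genes were picked by their call in wildtype, whose arrays also enter the contrast. The choice itself therefore leans these counts towards a larger response in wildtype. By the same limits 907 genes were called higher and 886 lower in anc1. For 1686 of the genes called in wildtype no difference was called. In general stress markers the response differed at 26 of 29 genes, with medians of 1.37 in wildtype and 0.06 in anc1, and in trehalose and glycogen metabolism at 15 of 18, with medians of 0.92 in wildtype and -0.73 in anc1. These are changes and not levels, and a smaller change can go with a higher level. HSP31, one of these markers, averaged 737 untreated and 8645 with MMS in wildtype, and 2869 and 9534 in anc1. TMT1, outside the lists, averaged 64.1 and 742 in wildtype, and 125 and 200 in anc1. The largest differences were in ARG1 (2.39 in wildtype, -1.21 in anc1, difference 3.6 ± 0.14, adjusted p = 1.5e-08), ARO5 (2.39 in wildtype, -0.86 in anc1), YNR068C (3.49 in wildtype, 0.37 in anc1) and ARG3 (3.49 in wildtype, 0.54 in anc1), and in the other direction YDL218W (-0.05 in wildtype, 2.99 in anc1, difference -3.04) and RDN18-1 (-5.65 in wildtype, -2.74 in anc1, difference -2.90). MAG1 had close responses, 2.58 in wildtype and 2.50 in anc1, and RNR3 had 2.98 in wildtype and 0.71 in anc1 (difference 2.27 ± 0.16, adjusted p = 1.5e-06). The actin ratio was 3.43 to 4.0 on the MMS arrays of anc1 and 1.74 to 1.85 on its untreated arrays, so that this control moved in anc1 as well. The SRB4 ratio was 9.74 to 11.8 with MMS and 4.50 to 6.28 without in anc1. In wildtype it was 16.1 to 19.3 with MMS and 4.66 to 5.91 without, so this control moved less in anc1. The SPT15 ratio in anc1 was 4.69 to 7.09 with MMS and 3.87 to 4.65 without. The part of these controls in the differences of response was not tested.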

How the data were processed

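RNA of 12 samples was hybridized by the authors to Affymetrix YG-S98 arrays and normalized with the Robust Multichip Average (RMA). The authors deposited 1 linear intensity for each of 9335 probe sets and array. Present calls by Microarray Suite were not used here, and neither the RMA version nor which arrays were normalized jointly is stated in the sources used here.

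With 60 controls left out, 9275 probe sets were put on the log2 scale. Of these 6504 named 1 gene, 328 several and 2443 none, and all 6504 matched a current symbol through the Entrez identifier. Each of 5656 genes was read from its brightest probe set over 12 arrays. No array holds a read depth, so the number of arrays limits the precision.

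All 12 arrays were fitted with 1 mean per group by lmFit and eBayes of limma 3.58.1 (R 4.3.3), and p-values were adjusted over 9275 probe sets by Benjamini and Hochberg's method. Limits were an adjusted p of 0.05 and a fold of 1.5, the methods' criteria. A ± value is the standard error of the fit. The code was tested on simulated data. The Local Pooled Error (LPE) test that the methods name was rewritten from its description and run as an alternative, with leave-one-out, blocked, rescaled and filtered fits.

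Named genes were the 15 largest changes each way, counting only called genes whose groups do not overlap. Added were up to 4 called members with the smallest p of a list, 4 lists in full and partners of related pairs with a call. Genes at the fold limit and the 6 largest differences from anc1 were named too. The samples compared and the lists were chosen with earlier results of these data known, and 3 lists (small nucleolar RNAs, pyrimidine genes, oxygen- and heme-regulated genes) after values were seen. Lists therefore carry counts and medians and no test. No promoter or protein sequence was used here.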

Additional observations from a re-analysis of the deposited data

Results flagged for a closer look

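The MMS response of 136 of the genes named here differed between wildtype and anc1 in the interaction test (limma, adjusted p under 0.05 and a difference of at least 1.5-fold), 80 with a more positive and 56 with a more negative response in wildtype. Each value is the log2 response of wildtype minus that of anc1. No outlier test was run within groups of 3 arrays. Replicate 3 was the array farthest from the mean of the other two at 42.5% of genes with MMS and at 38.8% without.

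In ribonucleotide reductase the difference was 2.27 in RNR3, 1.94 in HUG1, 0.80 in DUN1, 0.79 in RFX1, 0.78 in RNR1, 0.70 in RNR2. In alkylation and base excision repair the difference was 0.88 in APN2. In nucleotide excision repair the difference was 1.11 in RAD4, 1.0 in RAD7, 0.64 in RAD2. In homologous recombination the difference was 0.63 in RAD54. In DNA replication machinery the difference was 0.79 in DNA2. In stress regulators the difference was 1.74 in CIN5, 1.25 in XBP1, 1.17 in PDR1, 1.09 in MSN4, 0.96 in YAP1, 0.80 in CAD1, 0.79 in SWI4, 0.73 in RPN4. In ubiquitin and proteasome assembly the difference was 1.20 in UBI4, -0.68 in POC4. In cytosolic chaperones the difference was 1.81 in SSA4, 1.16 in BTN2, 1.12 in SSE2, 0.94 in HSP82, -0.70 in CNS1. In CCT chaperonin and ribosome-bound chaperones the difference was -0.65 in SSZ1.

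In mitochondrial chaperones and proteases the difference was 1.75 in HSP78, 0.63 in MDJ1. In thioredoxin and peroxiredoxin the difference was 1.66 in TSA2. In glutathione the difference was 0.94 in ECM4, -1.49 in GPX2. In catalase and superoxide dismutase the difference was -1.14 in YHB1. In oxidoreductases the difference was -0.76 in AAD4, -2.46 in OSI1. In multidrug transport the difference was -0.80 in QDR2, -0.96 in FLR1. In trehalose and glycogen the difference was 1.99 in PGM2, 1.85 in GSY1, 1.72 in GSY2, 1.54 in NTH1, 0.71 in NTH2. In general stress markers the difference was 1.95 in SOL4, 1.87 in ALD3, 1.85 in HSP31, 1.76 in MRK1, 1.41 in TFS1. In autophagy the difference was 1.21 in ATG1, 1.19 in ATG19.

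In proteases of the vacuole the difference was 1.19 in APE1, 0.74 in PEP4. In arginine synthesis the difference was 3.6 in ARG1, 2.95 in ARG3, 2.25 in ARG7, 2.22 in ARG4. In lysine synthesis the difference was 1.75 in LYS1, 0.96 in LYS20. In branched-chain amino acid synthesis the difference was 0.76 in LEU4, -0.79 in LEU1. In aromatic amino acid and histidine synthesis the difference was 1.76 in ARO1, 0.97 in TRP2, 0.93 in ARO9. In sulfate assimilation and methionine the difference was 1.90 in STR2, -0.72 in SAM1, -1.24 in SAM2. In nitrogen catabolite and allantoin the difference was 0.77 in GAT1. In purine synthesis the difference was -0.62 in IMD3, -1.02 in IMD2, -1.28 in IMD4, -1.63 in AAH1. In cytosolic ribosomal proteins the difference was 0.71 in RPL15B, -0.65 in RPL7A, -1.03 in RPL17A, -1.07 in RPS7A, -1.30 in RPL13A, -1.59 in RPS22B.

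In ribosome biogenesis the difference was -1.19 in NOP13, -1.23 in HAS1. In RNA polymerase I and III the difference was -0.92 in RPA190, -1.09 in RPA135. In translation factors the difference was -0.82 in TEF4, -1.76 in ANB1. In hexose transporters the difference was 2.00 in HXT5, 1.74 in HXT2. In TCA cycle, glyoxylate and gluconeogenesis the difference was 1.06 in CIT2, 0.86 in PYC1. In respiratory chain and ATP synthase the difference was 0.89 in NDE2, -2.36 in CYC1. In pentose phosphate the difference was 2.07 in NQM1, 1.49 in GND2, -0.95 in RKI1. In iron and copper uptake the difference was 2.56 in FIT2, 2.04 in SIT1, 1.41 in TIS11. In phospholipid and fatty acid synthesis the difference was 1.22 in INO1, -1.02 in ELO2, -1.34 in OLE1.

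In phosphate uptake and storage the difference was 2.37 in PHM8, 0.92 in PHO81, -1.76 in PHO3. In cell wall the difference was 0.72 in FKS1, -1.36 in GAS3, -1.70 in CHS2. In G1/S the difference was -0.60 in TOS6, -1.05 in CLN1, -1.86 in CLN2. In G2/M and mitotic exit the difference was -0.64 in CLB1, -1.01 in BUD4, -1.22 in SWI5. In pheromone response the difference was 1.5 in PRM5, 0.80 in GPA1, -1.21 in FAR1. In MATalpha genes the difference was 0.59 in SAG1. In sporulation the difference was 0.82 in SPS100. In small nucleolar RNAs the difference was -0.97 in SNR38, -1.14 in SNR63, -1.37 in SNR44, -1.52 in SNR56, -1.63 in SNR54, -1.95 in SNR72. In pyrimidine synthesis and salvage the difference was 1.81 in URA10, -0.87 in FUR1, -1.57 in URA7, -1.78 in URA1.

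In oxygen- and heme-regulated the difference was -0.92 in IZH1, -2.36 in IZH4. In genes outside the lists the difference was 3.25 in ARO5, 3.12 in YNR068C, 2.86 in TMT1, 2.66 in BOP2, 1.97 in FMP23, -0.84 in RRT14, -1.37 in PLB2, -2.90 in RDN18-1, -3.04 in YDL218W.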

How the results depend on the processing

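No setting turned a called gene to the opposite call. Counts of higher and lower genes were 1570 and 1179 with the replicate block (1396 differing from anc1), 1563 and 1163 on the 6 wildtype arrays alone, 1508 and 1229 after quantile normalization, 1536 and 1198 with the mean of the probe sets, 1531 and 1109 without the dimmest 25% of probe sets, and 1551 and 1221 by the LPE test. Same-numbered arrays had deviations correlated at 0.08, -0.13 and 0.25, and differently numbered ones at -0.29 to 0.25. With 3 arrays in each group these values cannot tell whether same-numbered arrays were paired. Median centring gave 1355 and 1408, and moved the median change of all genes to -0.04, against 0.08. A fold limit of 2 left 863 and 624 genes, and no fold limit gave 2332 and 1819, by their construction. Leaving out 1 array gave 1525 to 1615 higher, 1160 to 1220 lower and 1190 to 1488 differing genes.

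Of 3066 values of 256 named genes, 2974 kept sign and call, 47 lost a call, 25 gained one and 20 changed sign, and of 720 list medians 603 stayed within their spread, 108 moved beyond it and 9 changed sign. The changes of sign were in values that carried no call, apart from GSC2, and their cause was not tested. Under median centring they were WTM1 -0.043, REV7 -0.061, POL32 -0.047, GCN4 -0.083, MBP1 -0.037, the median of mitochondrial chaperones and proteases -0.034, the median of pentose phosphate -0.061, the median of sporulation -0.10. Under quantile normalization they were MBP1 -0.044, YDL218W 0.28, the median of pentose phosphate -0.025. The mean of probe sets gave GSC2 -0.34, and the dim filter gave the median of MATalpha genes 1.28. With 1 array left out the ranges were REV1 -0.015 to 0.22, REV7 -0.047 to 0.24, POL32 -0.078 to 0.17, MSN4 -0.43 to 0.011, GCN4 -0.0014 to 0.081, MBP1 -0.020 to 0.22, YDL218W -0.23 to 0.13, CYC7 -1.0 to 0.11, the median of pentose phosphate -0.020 to 0.14, the median of MATa genes -0.12 to 0.019, the median of sporulation -0.043 to 0.11. The number of arrays limits what a difference between neighbouring values can show.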

Other observations

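Probe sets that could not be assigned to 1 gene were also read. Of 2443 probe sets naming no gene, 205 were higher and 483 lower with MMS by the same limits. Of 328 naming several genes, 43 were higher and 101 lower. Among genes 27.7% were higher and 20.8% lower. Rises were thus below the share of genes in both sets, while falls were near it in the first and above it in the second.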
